A study of Mus musculus with 6 samples.

Results

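The 10 genes described here are markers of progenitor cells in the salivary gland and transcription factors of its epithelial lineages. They were chosen by gene symbol and make up 10 of the 23366 genes in the deposited expression table. The surface markers are Kit, Prom1 and Cd24a, the SOX factors are Sox2, Sox9 and Sox10, and Bmi1 encodes a polycomb subunit. Ascl3, Elf5 and Myb complete the set as transcription factors of single lineages. RNA-seq libraries were made from epithelial cells of the mouse submandibular gland, 3 from p63 knockout mice (KO) and 3 from wild-type mice (WT), all adults aged 12 weeks. The wild-type mice are the only comparison group, and 1 of their libraries is titled C where the others are titled WT. Neither the allele, the promoter or cell type that drives the deletion, nor any agent used to induce it is named in the labels. Values are in TPM, a transcript abundance that is corrected for gene length and scaled to a total of 1000000 in each library, so sequencing depth was unknown.

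Adult salivary glands hold no single agreed stem cell, and several epithelial populations have been shown to renew their own lineage. KIT is a receptor tyrosine kinase of distal and intercalated duct progenitors that answers to KIT ligand, and CD24 and prominin-1 (CD133) are surface proteins used to sort cells that form spheres in culture. SOX2, SOX9 and SOX10 are transcription factors that specify and maintain progenitors while the gland branches, and SOX10 is also kept in acinar and intercalated duct cells. BMI1 is a subunit of polycomb repressive complex 1, which silences cell cycle inhibitors in self-renewing cells. p63, encoded by Trp63, marks basal and myoepithelial cells, which lie outside the KIT-positive luminal compartment.

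The targeted gene, Trp63, stood at 1.59, 0.816 and 1.76 TPM in KO libraries 1, 2 and 3 and 3.48, 1.85 and 3.68 TPM in WT libraries 1, 2 and 3, lower in KO without overlap (-0.74 on the log2 scale, adjusted p = 0.27). It passed without KO library 3 (-0.85, adjusted p = 0.040), as did 11.7% of all genes tested in the lower direction. Fst, the gene of the activin inhibitor follistatin named in the series title, stood at 1.48 to 4.32 TPM in KO and 4.73 to 5.90 TPM in WT (adjusted p = 0.26). Markers of submandibular epithelium were present in every library, with Epcam at 128 to 232 TPM, the acinar water channel gene Aqp5 at 150 to 211 TPM and Krt8 at 160 to 270 TPM. Products of the granular convoluted tubule, led by Crisp3, Klk1b9 and Klk1b4, summed to 172068 to 199937 TPM in WT and 27923 to 64271 TPM in KO. The share of the fixed total left to genes outside this list thus differed between the groups. Acinar genes, led by Prol1, Pip and Car6, summed to 187541 to 198676 TPM in WT and 271306 to 311023 TPM in KO. The sum did not speak for the list, because 8 of its 13 tested genes had a negative difference, with a median of -0.078 on the log2 scale. The groups did not overlap for 3 of the 13, all higher in KO, beside 21.1% of all genes tested in either direction. Lists of fibroblast genes (Dcn, Lum and Vim highest), macrophage and leukocyte genes (Cd74, H2-Aa and Lyz2 highest) and myoepithelial genes (Acta2, Tagln and Myl9 highest) had lower sums in every KO library than in any WT library. Endothelial genes (Pecam1, Emcn and Eng highest) summed to 22.1 to 33.1 TPM in KO and 31.8 to 38.5 TPM in WT. KO library 3 stood apart from the other libraries, with 10634 genes at 1 TPM or more against 11129 to 11235 in the others. The 50 most abundant genes of each library held 80.3% of its total in KO library 3. They held 69.2% and 71.0% in KO libraries 1 and 2 and 73.3% to 75.9% in WT, so this share did not separate the groups. In bulk RNA, fewer cells of a type and less RNA per cell cannot be told apart.

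Of the 10 genes, 8 reached 1 TPM in at least 3 libraries and were tested, and 0 of the 8 passed at an adjusted p of 0.05 in limma (2 had an unadjusted p under 0.05). Over all 11268 genes tested, 0.390% passed in either direction and 15.4% had an unadjusted p under 0.05. Each adjusted p comes from limma's two-sided test with the Benjamini-Hochberg method across all genes tested, and each difference is KO minus WT on the log2(TPM + 1) scale, which understates the change of low genes. KO and WT values did not overlap for 2 of the 10 genes, Cd24a, which was lower in KO, and Sox10, which was higher. Both are among the 8 tested genes. Among all genes tested the groups did not overlap for 21.1%, so the share of the tested members was near the background. The median difference of the 8 tested genes was -0.16, beside 0.085 for all genes tested. An exact two-sided permutation test of 3 libraries against 3 gives no p below 0.1, and Cd24a and Sox10 both stood at that limit.

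**Figure D1:**
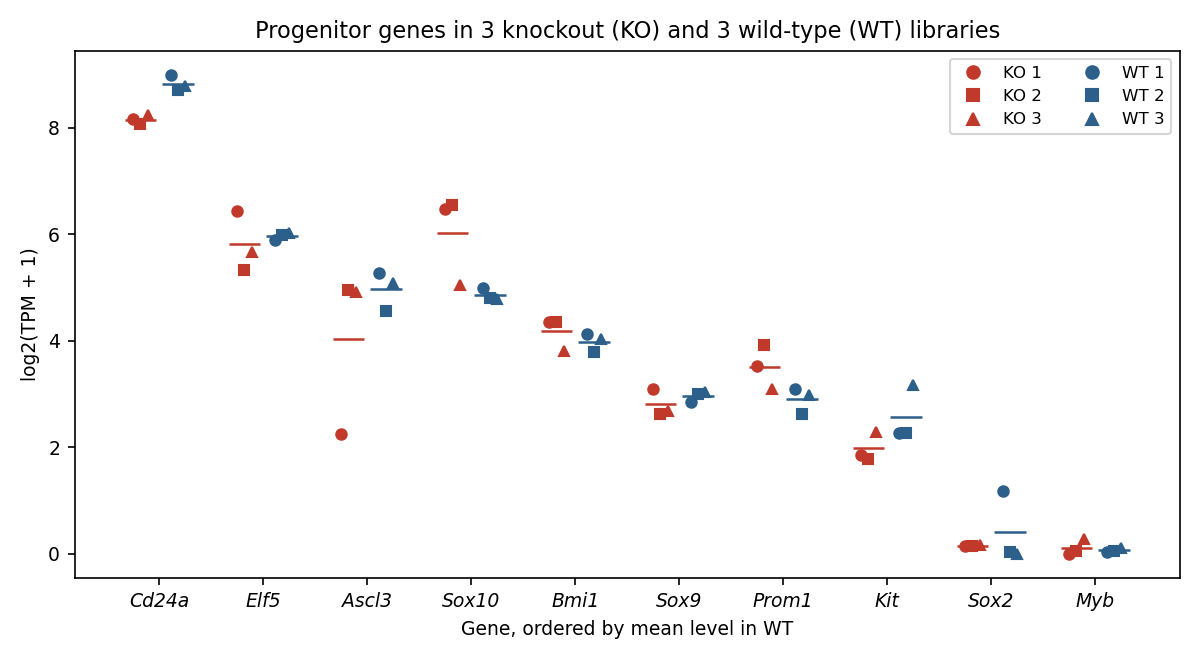
Level of each of the 10 genes as log2(TPM + 1) on the y axis, with genes ordered by their mean in WT on the x axis. Points are single libraries (KO red, WT blue, shape by library number) and short lines are group means of the log2 values. The groups are apart for Cd24a and Sox10, KO library 1 lies far below all other libraries for Ascl3, and Sox2 and Myb lie near the bottom of the scale.

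The order of the levels in WT ran from Cd24a to Myb. Cd24a had the highest level, a mean of 454 ± 48.7 TPM (SD, n = 3), which placed it 102nd among all genes. Elf5 followed at 61.6 ± 3.01 TPM, then Ascl3 at 30.9 ± 7.67 TPM and Sox10 at 28.0 ± 2.31 TPM, whose ranges overlapped with each other. Bmi1 at 14.9 ± 1.91 TPM was clear of its neighbours on both sides. Sox9 (6.79 ± 0.529 TPM), Prom1 (6.55 ± 1.27 TPM) and Kit (5.19 ± 2.39 TPM) formed a run in which each range overlapped with the next. Sox2 and Myb came last with means under 1 TPM. By mean, the order in KO differed in 2 places, with Sox10 second, ahead of Elf5 and Ascl3, and Prom1 ahead of Sox9.

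CD24 is a small, heavily glycosylated surface protein that is anchored to the membrane by a lipid, and its gene Cd24a was the most abundant of the set. It stood at 284, 266 and 299 TPM in KO libraries 1, 2 and 3 and at 508, 414 and 440 TPM in WT libraries 1, 2 and 3. Every KO library was below every WT library, and the KO mean was 0.624 times the WT mean. The difference was -0.68 (SE 0.17, 95% confidence interval -1.08 to -0.27) and missed the threshold (adjusted p = 0.13). It passed without KO library 3 (-0.72, adjusted p = 0.0093), as did 11.7% of all genes tested in the lower direction and 45.5% in either direction. It also passed with array weights (-0.71, adjusted p = 0.0072). In that fit 1345 of the 11268 genes tested passed as lower, and 42.8% passed in either direction. The array weights gave KO library 3 the lowest weight, 0.090, so these 2 fits are not separate checks. Related intronless copies of Cd24a exist in the mouse genome, so the reads given to it are uncertain in part.

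Cd24a is also a gene of blood and basal cells, and lists of those cells were lower in the same libraries. Basal duct genes (Ngfr, Itga6 and Krt14 highest) summed to 90.3 to 120 TPM in KO and 230 to 257 TPM in WT. Of 10 tested, 1 passed as lower, Krt14, beside 0.319% of all genes tested. The list also holds Trp63, the targeted gene. Erythroid genes, led by Beta-s and Alas2, summed to at most 62.4 TPM in KO and to 104 to 219 TPM in WT, and 4 haemoglobin genes of that list were listed at 0 in every library. T and B lymphocyte genes, with Cd79a, Cd3g and Cd79b highest, summed to 0.850 to 1.37 TPM in KO and 2.08 to 3.12 TPM in WT. The part of these cells in the Cd24a difference was not tested. Divided by Epcam within each library, a pan-epithelial gene chosen for this after its values were seen, Cd24a stood at 1.42, 1.76 and 2.33 in KO and 2.19, 2.40 and 2.21 in WT. KO library 3 then lay among the WT libraries. Divided by Krt8, a keratin of luminal cells, the groups stayed apart, at 0.988 to 1.87 in KO and 1.99 to 2.72 in WT, and 15.3% of the other genes tested were likewise lower in every KO library.

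Prominin-1 is a pentaspan membrane protein of the apical surface of duct cells. Its gene Prom1 stood at 10.5, 14.1 and 7.52 TPM in KO and 7.59, 5.14 and 6.94 TPM in WT. KO libraries 1 and 2 were above all WT libraries, while KO library 3 lay just below WT library 1, so the groups overlapped. The difference was 0.61 (SE 0.28, interval -0.047 to 1.26, adjusted p = 0.35). Without KO library 3 it was 0.82 and passed (adjusted p = 0.015), as did 33.8% of all genes tested in the higher direction. Divided by Epcam, Prom1 was higher in every KO library (0.0527, 0.0930 and 0.0587) than in any WT library (0.0328, 0.0299 and 0.0349), which also held for 33.1% of the other genes tested. Divided by Krt8 or by Aqp5 the Prom1 groups were apart in the same direction, where 4.96% and 13.7% of the other genes tested were. Prom2, the related prominin of epithelial membrane protrusions, stood at 157, 114 and 41.4 TPM in KO and 91.0, 76.7 and 69.0 TPM in WT. KO libraries 1 and 2 were again the highest and KO library 3 the lowest, with a difference of 0.21 (adjusted p = 0.82) that turned to -0.026 with GC content and length trends removed.

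Kit was low in every library, at 2.63, 2.44 and 3.90 TPM in KO and 3.82, 3.80 and 7.95 TPM in WT. WT library 3 was the highest by far, and KO library 3 lay above WT libraries 1 and 2, so the groups overlapped. The difference was -0.59 (SE 0.31, interval -1.31 to 0.14, adjusted p = 0.38), and it was -0.29 without WT library 3. Mast cells and melanocytes also carry KIT. Mast cell genes, with Tpsb2, Mcpt4 and Cpa3 highest, summed to 1.03 to 6.03 TPM in KO and 1.83 to 5.07 TPM in WT, and none reached the level needed for a test. Of the melanocyte genes, Mitf, Pmel and Tyr were highest, with a summed level of 2.93 to 4.79 TPM in KO and 2.22 to 2.98 TPM in WT, and Tyrp1 and Mlana were listed at 0 in every library. The part of mast cells and melanocytes in the Kit values was not tested.

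Kitl, which encodes the ligand of KIT, stood at 22.8, 9.33 and 9.03 TPM in KO and 8.54, 5.78 and 9.14 TPM in WT. KO library 1 was more than 2 times the next library, the other KO libraries were close to the WT range, and the difference did not pass (0.64, SE 0.38, adjusted p = 0.42). Of 12 listed genes for the ligand and the signalling proteins below KIT, all 12 were tested and 0 passed in limma (2 with an unadjusted p under 0.05), with a median of 0.31. The values of the groups were apart for 2 of the 12, Gab2 and Stat5b, both higher in KO. Over all genes tested the groups were apart for 21.1% in either direction, so the list did not exceed that share. Gab2, a docking protein downstream of KIT, stood at 10.4, 11.3 and 2.79 TPM in KO and 2.19 to 2.44 TPM in WT (adjusted p = 0.24). Stat5b, a transcription factor switched on by cytokine and kinase receptors, stood at 10.4, 12.1 and 7.40 TPM in KO and 4.88 to 5.96 TPM in WT (adjusted p = 0.24). Both were named after their values were seen. Without KO library 3, 5 of the 12 passed as higher and 0 as lower, beside 33.8% and 11.7% of all genes tested.

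**Figure D2:**
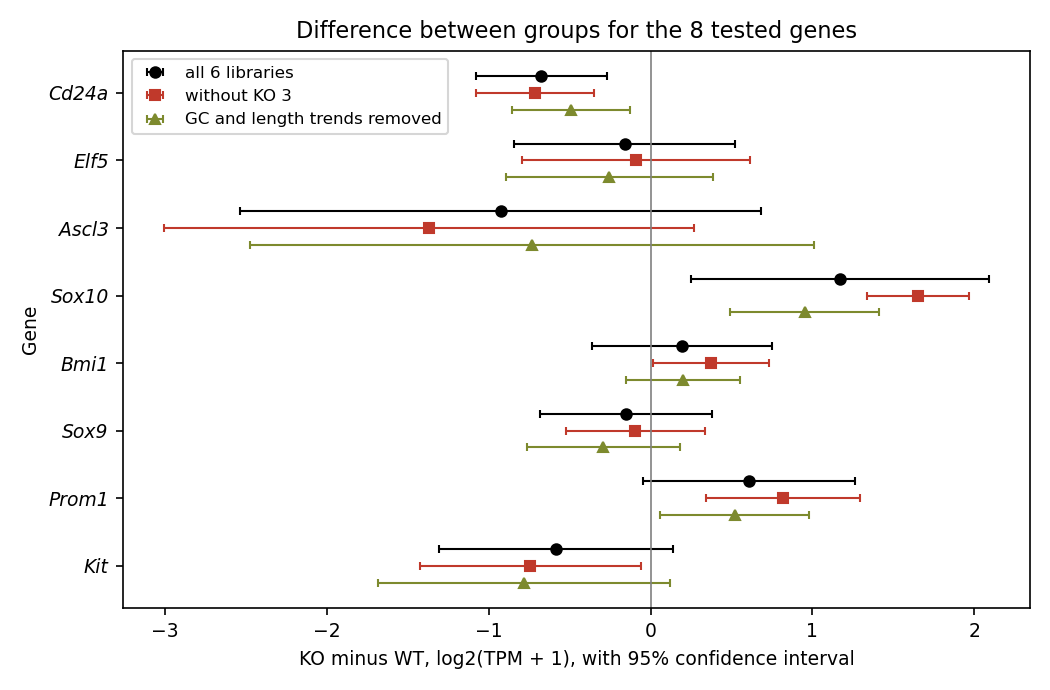
Difference between KO and WT on the log2(TPM + 1) scale (x axis) for the 8 tested genes (y axis), with 95% confidence intervals from limma. Black circles use all 6 libraries, red squares leave out KO library 3 and green triangles use values from which each library's trends against GC content and transcript length were removed. Sox10 moves from 1.17 to 1.65 without KO library 3, and the interval of Ascl3 is the widest in each fit.

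Sox10 had the largest difference among the 8 tested genes. SOX10 is a factor of neural crest and of the distal buds, and forced expression of its gene is known to confer progenitor features on salivary epithelium. It stood at 88.3, 92.0 and 32.2 TPM in KO and 30.7, 27.0 and 26.4 TPM in WT. KO libraries 1 and 2 were more than 2 times any WT library, whereas KO library 3 exceeded the highest WT library by little. The difference was 1.17 (SE 0.40, interval 0.25 to 2.09, adjusted p = 0.23). It was 1.65 without KO library 3 and then passed (adjusted p = 0.00044), as did 33.8% of all genes tested in the higher direction. It was 0.94 without KO library 1 and 0.91 without KO library 2 (adjusted p = 0.50 in each).

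A split of this kind between the KO libraries was common. Genes with KO libraries 1 and 2 at least 2 times the highest WT library and KO library 3 under 1.5 times it, a pattern written after the Sox10 values were seen, made up 9.03% of all genes tested. Among 63 tested genes of the family and pathway lists, 5 had it, namely Gab2, Sox12, Sox13, Cbx7 and Phc2. The longest annotated transcript of Sox10 has a GC content of 61.8%, the highest of the 10 genes. The libraries differed in their trend with GC content. Between genes of 41.3% and 57.8% GC the fitted log2 level changed by 0.18, 0.34 and -0.20 in KO libraries 1, 2 and 3 and by -0.22 to -0.0041 in WT. With these trends and those of length removed, Sox10 stood at 6.14, 6.08 and 5.53 in KO and 5.07, 4.91 and 4.91 in WT on the log2 scale. All KO libraries were then clear of all WT libraries, with a difference of 0.95 (SE 0.20, adjusted p = 0.087), and 13.9% of all genes were higher in every KO library on these values.

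Schwann cells also express Sox10. The Schwann cell list, with Ngfr, Erbb3 and Mbp highest, summed to 141, 130 and 57.9 TPM in KO and 108 to 130 TPM in WT, and 0 of its 8 tested genes passed in limma (3 with an unadjusted p under 0.05). The groups were apart for 4 of the 8, all lower in KO, beside 21.1% of all genes tested in either direction. The median difference of the 8 was -0.43. Erbb3, a neuregulin receptor that epithelia express too, made up most of the list's sum in KO libraries 1 and 2. It stood at 106, 106 and 9.12 TPM in KO and 13.1 to 15.3 TPM in WT. KO libraries 1 and 2 were thus above WT, as for Sox10, but KO library 3 was below WT for Erbb3 and above it for Sox10. Foxd3, a neural crest factor, was at or below 0.137 TPM in every library. The part of Schwann cells in the Sox10 difference was not tested. Divided by Aqp5, a gene of acinar cells, Sox10 stood at 0.437, 0.507 and 0.214 in KO and 0.145 to 0.156 in WT, and the groups were apart, as they were in the higher direction for 13.7% of the other genes tested.

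**Figure D3:**
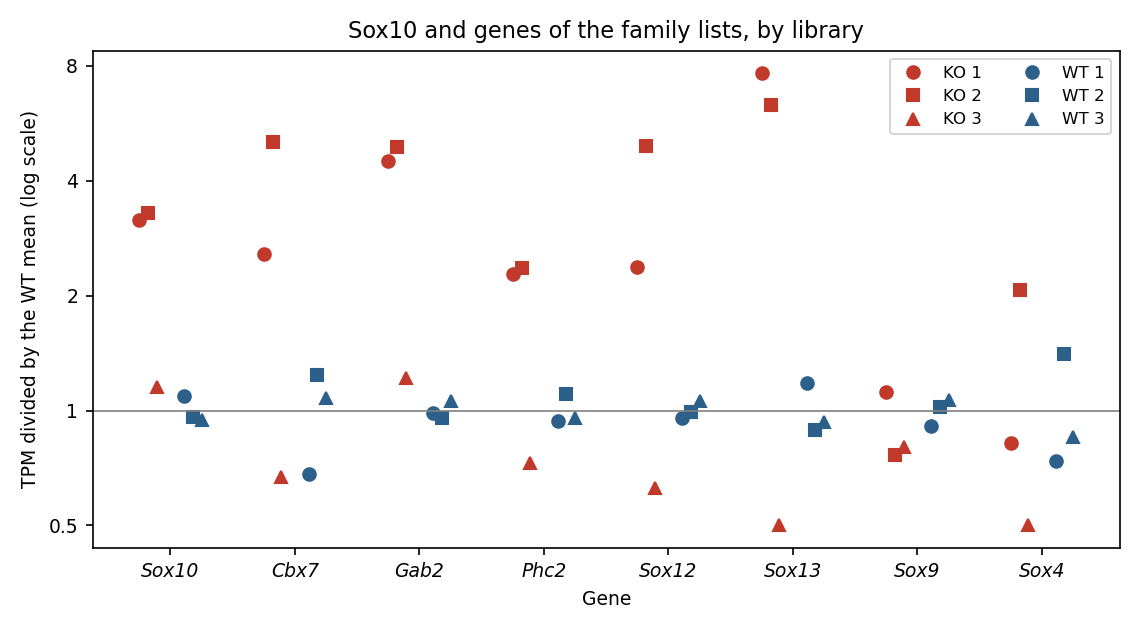
TPM divided by the WT mean of the gene (y axis, log scale) in each library for Sox10, the 5 listed genes that shared its pattern, and Sox9 and Sox4 (x axis). Points are single libraries, KO red and WT blue. KO libraries 1 and 2 lie above 2 for the first 6 genes while KO library 3 lies below them, and Sox9 shows no such split.

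Sox9, which is needed for distal progenitors in the branching gland, kept a narrow range. It stood at 7.59, 5.18 and 5.44 TPM in KO and 6.20, 6.95 and 7.22 TPM in WT. KO library 1 was the highest of all 6 libraries and the other KO libraries were the lowest, so the groups overlapped. The difference of -0.15 (SE 0.23, adjusted p = 0.73) had an interval of -0.69 to 0.38.

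Sox2 marks progenitors of the sublingual gland and other foregut epithelia, and was not tested because its level was under 1 TPM in 5 libraries. It stood at 0.103, 0.113 and 0.128 TPM in KO and at 1.27, 0.0278 and 0 TPM in WT. WT library 1 was thus the single library with an appreciable level, and the WT group held both the highest and the lowest values. A list of 8 products of the neighbouring sublingual and parotid glands, led by Dcpp1, Amy1 and Cst10, summed to 2218, 1211 and 133 TPM in WT libraries 1, 2 and 3 and to 2150, 46.8 and 86.8 TPM in KO libraries 1, 2 and 3. The sublingual mucin gene Muc19 stood at 38.8, 0.885 and 0.0179 TPM in WT and 21.3, 0.267 and 0.0172 TPM in KO. Dcpp2 and Bpifa2 are not in that list and were named after their values were seen. Dcpp2 had the same order of libraries as Muc19, whereas Bpifa2 was highest in WT library 2. Dcpp2 stood at 793, 7.06 and 1.03 TPM in KO and 4939, 45.9 and 1.86 TPM in WT, and Bpifa2 at 3648, 15.3 and 281 TPM in KO and 826, 5152 and 390 TPM in WT. WT library 1 was the highest library for Sox2, Muc19 and Dcpp2. KO library 1 was next for Muc19 and Dcpp2, but its Sox2 level of 0.103 TPM was the lowest of the KO libraries. The part of sublingual tissue in the Sox2 values was not tested. The Dcpp genes are near-identical copies, so reads may be divided among them uncertainly.

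Of 16 other SOX family genes, 4 were tested and 0 passed in limma (1 with an unadjusted p under 0.05), with a median of 0.39, and Sox1, Sox3 and Sox30 were listed at 0 in every library. Sox4, a factor widely expressed in epithelial progenitors, stood at 7.06, 17.7 and 4.30 TPM in KO and 6.31, 12.1 and 7.33 TPM in WT. Library 2 was the highest in each group, the groups overlapped, and the difference of 0.00046 changed sign under 9 of 19 alternatives (SE 0.47, adjusted p = 1.00). Sox13 had the widest split of the family, at 71.9, 59.5 and 4.70 TPM in KO and 8.36 to 11.1 TPM in WT (adjusted p = 0.41). Sox18, a factor of vessels, was listed at 0 in KO library 1 and stood at 0.515 and 2.03 TPM in KO libraries 2 and 3, against 1.79 to 2.36 TPM in WT. Sox13 and Sox18 were named after their values were seen.

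Bmi1 varied little between the groups. It stood at 19.5, 19.5 and 13.1 TPM in KO and 16.6, 12.8 and 15.3 TPM in WT. KO libraries 1 and 2 were the highest, and KO library 3 lay within the WT range. The difference was 0.19 (SE 0.24, adjusted p = 0.67), with an interval of -0.36 to 0.75. Of 17 other genes of polycomb repressive complex 1, 16 were tested and 0 passed in limma (2 with an unadjusted p under 0.05), with a median of 0.31 and 11 positive differences. The catalytic E3 ligase genes were Ring1, at a difference of -0.062 (adjusted p = 0.92), and Rnf2, at 0.36 (adjusted p = 0.56). Ring1 stood at 8.63, 8.31 and 4.01 TPM in KO and 6.85 to 7.12 TPM in WT, so KO libraries lay on both sides of WT. Without KO library 3, 8 of the 16 passed as higher and 0 as lower, beside 33.8% higher among all genes tested, and Bmi1 itself did not pass (0.37, adjusted p = 0.081). Cdkn2a, the cell cycle inhibitor gene that BMI1 silences, was listed at 0.111 TPM in KO library 1 and at 0 in the other 5 libraries. Its neighbour Cdkn2b stood at 0.699 to 1.46 TPM in KO and 0.351 to 1.25 TPM in WT, with a difference of 0.23.

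ELF5 is an ETS factor of luminal progenitors, known best from the mammary gland. Elf5 stood at 85.3, 39.0 and 49.6 TPM in KO and 58.4, 62.1 and 64.3 TPM in WT. KO library 1 was the highest and KO libraries 2 and 3 the lowest of the 6, so the KO values lay on both sides of a narrow WT range. The difference was -0.16 (SE 0.29, interval -0.84 to 0.52, adjusted p = 0.78), and without KO library 2 its sign turned (0.080). Of 8 related ETS genes, 7 were tested and 0 passed in limma (2 with an unadjusted p under 0.05), with a median of 0.24. Ehf, an epithelial ETS factor, stood at 118, 111 and 143 TPM in KO and 175, 158 and 194 TPM in WT, which did not overlap (-0.50, SE 0.19, adjusted p = 0.28). Elf3, another epithelial member, stood at 33.8, 37.6 and 25.7 TPM in KO and 28.1 to 29.6 TPM in WT (0.15, adjusted p = 0.72). Spdef, a factor of secretory cells that was named after its values were seen, was higher in every KO library, at 73.5, 51.2 and 36.3 TPM against 28.1, 18.2 and 18.1 TPM in WT (1.25, SE 0.31, adjusted p = 0.12). Of the 7 tested ETS genes, 3 were apart, Spdef in the higher direction and Ehf and Ets1 in the lower. Over all genes tested the groups were apart for 21.1% in either direction. Ets1, also named after its values were seen, stood at 1.36 to 2.05 TPM in KO and 2.38 to 2.75 TPM in WT.

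ASCL3 marks a duct cell population rich in mitochondria and proton pumps, akin to ionocytes, that has been traced as a lineage-restricted progenitor. Ascl3 stood at 3.76, 29.9 and 29.3 TPM in KO and 37.6, 22.5 and 32.7 TPM in WT. KO library 1 was far below all other libraries, whereas KO libraries 2 and 3 lay within the WT range. The difference was -0.93 (SE 0.69, interval -2.54 to 0.68, adjusted p = 0.49), and it shrank to -0.031 without KO library 1. A value in KO library 1 of at most 0.5 times the lowest other library was found for 154 genes, 1.37% of all genes tested, by a pattern written after the Ascl3 values were seen. Ascl3 had the widest range of the 8 tested genes over the 6 libraries, 3.02 on the log2 scale. The genes most like it over these 6 libraries by Pearson's r of log2(TPM + 1) were Zfp3 (r = 0.996), Clec2d (r = 0.992) and Prkrip1 (r = 0.980), each of which was lowest in KO library 1. The 6 points are libraries of unknown depth and unequal composition, and these correlations are a description.

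Of 10 genes of ionocytes and the ASCL3 lineage, 8 were tested and 0 passed in limma (2 with an unadjusted p under 0.05), with a median of 0.0072. Foxi1, the master factor of ionocytes, stood at 5.04, 7.03 and 13.8 TPM in KO and 6.70 to 11.0 TPM in WT. Foxi2, a related forkhead gene, stood at 0.877, 3.52 and 5.26 TPM in KO and 3.67, 2.40 and 3.77 TPM in WT. Both were lowest in KO library 1 and highest in KO library 3. Cftr, the chloride channel gene that ionocytes and duct cells express, stood at 4.29, 7.24 and 11.9 TPM in KO and 17.0, 13.6 and 13.4 TPM in WT. Every KO library was below every WT library for Cftr, again with KO library 1 lowest (-0.92, SE 0.34, adjusted p = 0.27). The proton pump subunit gene Atp6v1b1 was also apart, at 3.75 to 5.44 TPM in KO and 7.03 to 14.9 TPM in WT (adjusted p = 0.20). The ductal list (Krt18, Krt8 and Tfcp2l1 highest) summed to 1773, 2178 and 865 TPM in KO and 1182 to 1377 TPM in WT, with Krt18 alone at 907, 1059 and 272 TPM in KO. Duct genes differed among themselves. Of the 11 tested, 3 were apart (Cftr, Krt7 and Krt19), all in the lower direction, beside 21.1% of all genes tested in either direction. The duct keratin gene Krt7, named like Krt19 after its values were seen, was lowest in KO library 1, at 93.5, 139 and 108 TPM in KO and 185 to 239 TPM in WT. KO library 1 was also 1 of the 3 libraries rich in products of neighbouring glands. So were WT library 1, with the highest Ascl3 level of all libraries (37.6 TPM), and WT library 2, with the lowest WT level (22.5 TPM). The part of neighbouring glands in the Ascl3 value was not tested.

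**Figure D4:**
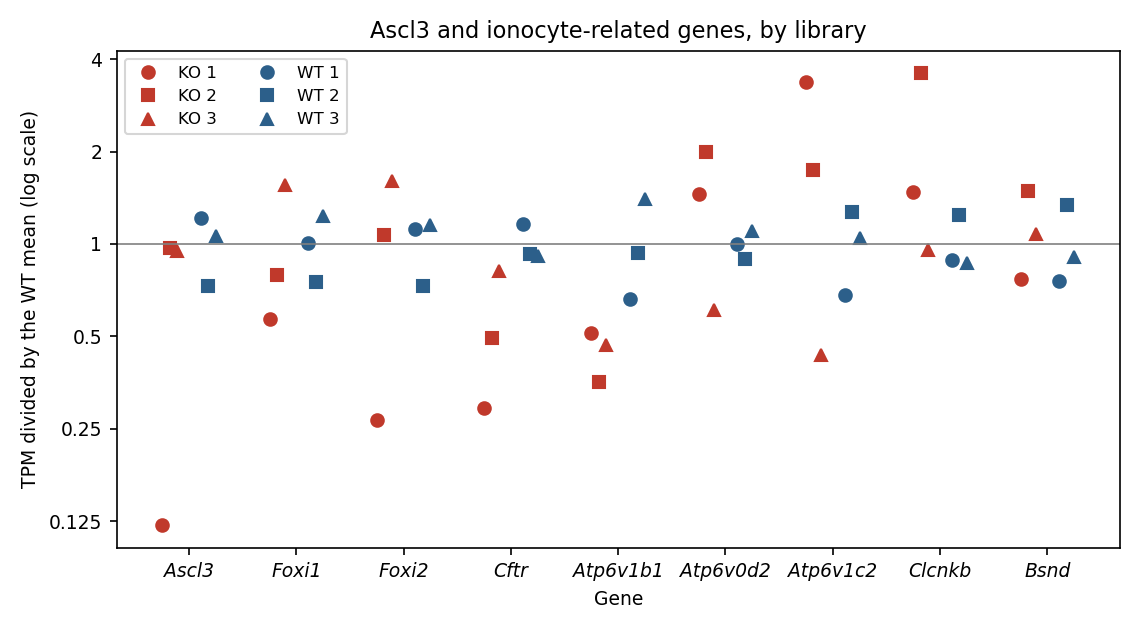
TPM divided by the WT mean of the gene (y axis, log scale) in each library for Ascl3 and the 8 tested genes of the ionocyte list (x axis). Points are single libraries, KO red and WT blue. KO library 1 is the lowest for Ascl3, Foxi1, Foxi2 and Cftr, but not for the pump and channel genes to the right.

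Myb, the proto-oncogene factor of haematopoietic and colon crypt progenitors, was at the edge of the measurement. It was listed at 0, 0.0368 and 0.207 TPM in KO and 0.0307, 0.0362 and 0.0862 TPM in WT, and was not tested. The groups overlapped, with the lowest and the highest value both in KO. The related cell cycle factor genes Mybl1 and Mybl2 were untested too. Mybl1 stood at 0.426, 0.449 and 0.748 TPM in KO and 0.163, 0.192 and 0.0457 TPM in WT, and Mybl2 at 0.470 to 0.921 TPM in KO and 0.156 to 0.440 TPM in WT. Both were higher in every KO library than in any WT library, at levels under 1 TPM.

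A list of 19 other markers of salivary stem and progenitor cells was set beside the 10 genes. Of these, 14 were tested, 1 passed as lower and 0 as higher, beside 0.319% and 0.0710% of all genes tested. The median of the 14 was -0.35, and 11 differences were negative. Krt14, the keratin of basal cells, was the gene that passed, at 9.89, 6.07 and 11.6 TPM in KO and 37.5, 42.7 and 33.9 TPM in WT (-1.97, SE 0.27, adjusted p = 0.037). Its partner keratin Krt5 stood at 5.08, 0.191 and 5.08 TPM in KO and 27.1, 16.9 and 23.1 TPM in WT (-2.70, SE 0.62, adjusted p = 0.099). Both keratins were lower in every KO library than in any WT library, and their differences were larger in size than that of any of the 8 tested progenitor genes. The values were also apart, in the lower direction, for Itga6, the laminin-binding integrin of basal cells (27.6 to 33.1 TPM in KO and 39.1 to 43.6 TPM in WT, adjusted p = 0.29). The same held for Cd34 (3.42 to 5.11 TPM in KO and 7.24 to 9.59 TPM in WT, adjusted p = 0.16). It also held for the integrin gene Itgb1 (37.0 to 55.7 TPM in KO and 56.6 to 57.8 TPM in WT, adjusted p = 0.48). Of the 14 tested markers 5 were thus apart, all in the lower direction, beside 21.1% of all genes tested in either direction. Krt14 missed the threshold in 13 of 19 alternatives, among them a fit that kept a single WT library. Its difference was -2.20 to -1.73 over all of them. Apart from that fit, the adjusted p in limma ran from 0.00036 with array weights to 0.23 without WT library 1.

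**Figure D5:**
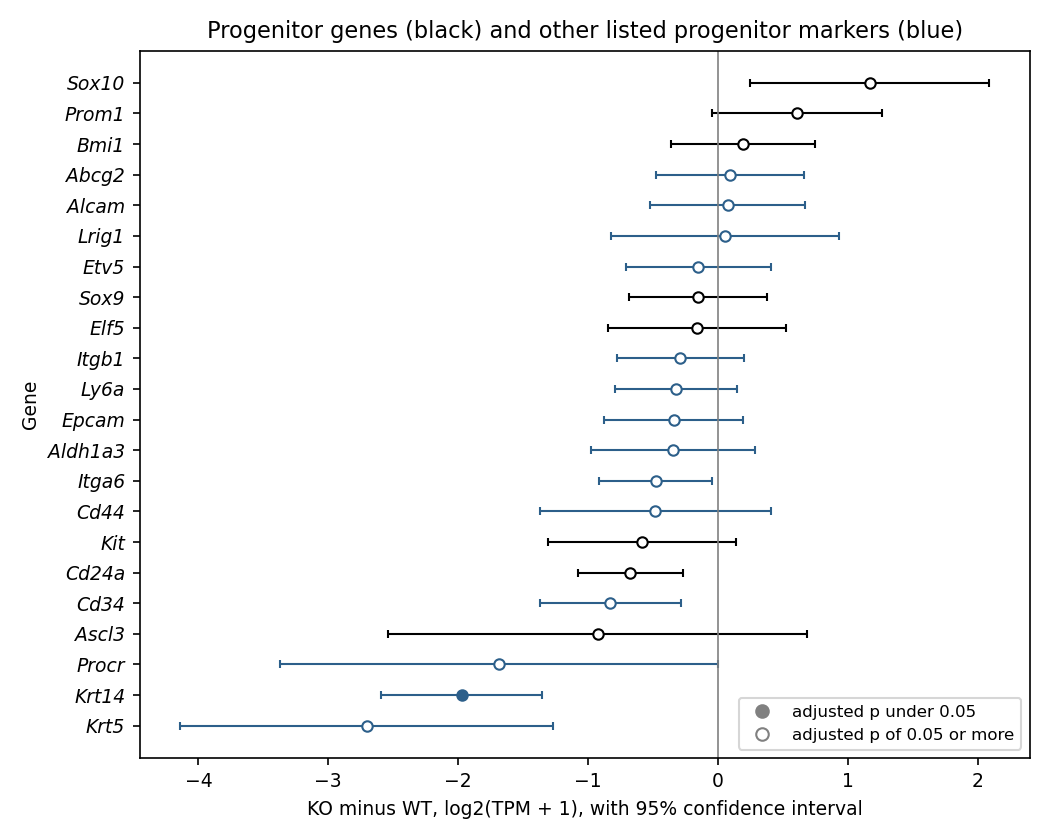
Difference between KO and WT on the log2(TPM + 1) scale (x axis) with 95% confidence intervals from limma, for the 8 tested progenitor genes (black) and 14 other tested progenitor markers (blue) on the y axis, ordered by the difference. Filled points passed at an adjusted p of 0.05. Krt14 is the single filled point at -1.97, Krt5 is lowest at -2.70, and Sox10 is highest at 1.17.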

How the data were processed

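The authors deposited TPM, normalised from read counts per gene for depth and for length, as the labels state. The submitters' processing notes name DESeq2 1.20.0, featureCounts 1.5.1, TopHat2 2.1.1 and Bowtie2 2.2.6, and the mm9 genome build. How strand and multi-mapped reads were handled, and with which annotation, is not given in the sources used here. Groups came from the genotype label. Which mice went into which sample is not stated, so p-values reflect sample-to-sample spread, which may be technical.

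Values were transformed to log2(TPM + 1). Genes that reached 1 TPM in 3 or more libraries (11268 of 23366) were tested in limma 3.58.1 (empirical Bayes, trend on mean level; R 4.3.3), and p-values were adjusted over all of them by Benjamini-Hochberg. The procedure was tested on simulated data. TPM keeps no depth, so no counting error was given. No coordinates are printed, because the reference used here was GRCm38. It served for gene names and for GC content and length of the longest transcript (99.5% of the genes tested).

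The genes and lists were chosen with earlier results of these data known. Named were all 10 genes, Trp63, Fst, 14 preset relatives (among them Krt5, Krt14, Kitl and Foxi1), listed genes that passed, the 3 most abundant genes of each cell type list and the 3 genes most like the member with the widest range. Others were named after their values were seen. Some genes that this rule or the lists cover are not reported here. Alternatives were 2 other pseudocounts (0.1 and 0.5), no filter and a 5 TPM filter, 3 other scalings, 3 other limma settings, a block for neighbouring library index numbers, and leaving out each library. Chosen later, with the data in view, were removal of GC and length trends and a fit without KO library 1 and WT libraries 1 and 2. That fit left out the libraries richest in products of neighbouring glands. It kept WT library 3 as its only WT library and so had no measure of spread within WT. Python 3.11.15 and matplotlib 3.10.9 were used for figures.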

Additional observations from a re-analysis of the deposited data

How the results depend on the processing

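The 0 of 8 tested progenitor genes that passed became 3 with array weights and 3 without KO library 3 (Cd24a, Prom1 and Sox10 each time) and stayed 0 in the other 17 alternatives (0 to 3 when each library was left out). In those 2 fits 42.8% and 45.5% of all genes passed. The array weight of KO library 3 was 0.090, against 0.763 to 2.76 for the other libraries. The 2 fits thus both discount KO library 3 and are not separate checks. The number of all genes that passed was 44. It was 25 with a pseudocount of 0.1 TPM, 11 with no filter, 29 with the 5 TPM filter, 72 with quantile normalization, 4822 with array weights, 20 without the 3 libraries rich in products of neighbouring glands, and 0 to 5127 when each library was left out, with 0 without WT library 2 or 3. Of Trp63 and Fst, 0 passed, but 2 did with array weights, and 0 to 1 when each library was left out. Neither could be tested with the 5 TPM filter. Of the 63 tested genes of the family and pathway lists, 1 passed. It was 0 with a pseudocount of 0.1 TPM, no filter, each of the 3 scalings, the block for neighbouring index numbers, and GC and length trends removed. With array weights it was 32, and 0 to 33 when each library was left out. The cause was not tested. Signs turned for Elf5 (-0.47 to 0.080), Foxi1 (-0.48 to 0.17), Prom2 (-0.18 to 0.77), Ring1 (-0.23 to 0.24) and Sox4 (-0.51 to 0.40) when each library was left out. Others were Prom2 with GC and length trends removed (-0.026), Ring1 with array weights (0.20) and Rnf2 in the fit with a single WT library (-0.077). Sox4 was -0.017 and -0.0085 with pseudocounts of 0.1 and 0.5 TPM, -0.058, -0.16 and -0.077 with median-of-ratios scaling, quantile normalization and rescaling without the 50 most abundant genes, and -0.20 with trends removed. With the block for neighbouring index numbers, which the labels do not state to be pairs of mice, 31 of all genes passed and Krt14 did not (-1.97, adjusted p = 0.061).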
